A study of Mus musculus with 9 samples.

Results

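The p11 complex was examined as 4 genes of the 52636 in the count table, S100a10 and its partners Anxa2, Ahnak and Hltf, chosen by name and matched to their Ensembl IDs. S100a10 encodes p11, an S100 protein that has lost the ability to bind calcium. It pairs with annexin A2, the product of Anxa2, at the inner face of the cell membrane, and the pair helps to carry receptors and channels to the cell surface. Ahnak encodes a very large scaffold protein that binds the pair, and Hltf encodes the chromatin remodelling ATPase SMARCA3, which the pair can bind in the nucleus. In the striatum, p11 is known for its high level in cholinergic interneurons and for its part in responses to antidepressants and to reward.

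The 9 libraries were made from cells of male C57BL/6 mice. The cells were dissociated from nucleus accumbens punches and sorted by flow cytometry after staining for choline acetyltransferase (ChAT), which synthesises acetylcholine. They fell into 3 groups of 3. The naive group had taken no cocaine and has the genotype label WT. The groups titled RES and SUS had learned to take cocaine intravenously, with at most 40 infusions per session at a fixed cost. They then worked for infusions of 1.2 mg/kg at a rising cost in nosepokes, 23 h per day on 10 days. Tissue was taken on the third day after the last session. Their genotype labels repeat the titles, with no allele named, and punches of 2 to 3 mice were pooled per condition. The behavioural phenotype field calls the RES libraries susceptible and the SUS libraries resilient, the opposite of what the titles seem to abbreviate, so no difference is read here as susceptible or resilient. Whether replicates are separate pools is not stated, so the spread behind each p-value may be technical.

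Total counts ran from 4471675 to 11155730 per library, and mitochondrial genes took 9.09% to 28.7% of them. Background was defined as the count density of 1134 olfactory receptor genes per kilobase (kb) of exon, and ran from 6.07 to 21.2 counts per kb. Since 39 autosomal genes restricted to other tissues stood at a median of 1.65 to 2.28 times this density, a gene near 2 times background is not separable from a silent gene. The 10 cholinergic markers, with which the labelled cell type was checked, had a median of 1.0 to 2.09 times background per library, and 0 of them averaged above 3 times it. Chat was at 0.877 to 2.5 times background in 8 libraries and at 7.86 in SUS replicate 2, while the choline transporter Slc5a7 was at 0.8 to 1.46 in all 9. The vesicular acetylcholine transporter Slc18a3 was at 0.395 to 1.09 in 8 libraries and at 2.29 in SUS replicate 2. The 12 microglia markers, none at 0 in any library, summed to 273 to 2725 CPM (counts relative to the scaled library total) in naive, 130 to 1424 in RES and 235 to 4807 in SUS. Their median was 1.98 to 4.17 times background in naive replicate 3, RES replicates 2 and 3 and SUS replicate 2, and 22.4 to 68.4 in the other 5 libraries. RES replicate 3 had the highest scaling factor (1.58) and the lowest levels of neuronal, astrocyte and oligodendrocyte markers relative to background.

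S100a10, the gene of p11, was at the level of silent genes in these libraries. The gene (ENSMUSG00000041959) lies on chromosome 3 from 93555080 to 93564643 on the plus strand of GRCm38, with 1212 bases of exon. It received 215 counts in all. Naive replicates 1 to 3 had 27, 11 and 28 of these, the RES libraries 33, 13 and 11, and the SUS libraries 34, 28 and 30. Per length, the 3 naive libraries had S100a10 at 1.36, 1.5 and 1.09 times background, the RES libraries at 2.16, 1.34 and 0.515, and the SUS libraries at 1.56, 1.29 and 1.33. RES replicate 1 held the highest value and RES replicate 3 the lowest, so RES spanned both other groups. In 0 of 9 libraries did the exact 95% Poisson interval of the S100a10 ratio, which covers counting error only, lie above the median of the genes of other tissues, and in 4 it lay below. Averaged over libraries, S100a10 was at 1.35 times background, and 4 of the 39 other-tissue genes averaged less. SUS replicate 2, the library with the most Chat, had 28 counts of S100a10.

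Anxa2, whose protein binds p11 and phospholipids of the membrane, was at a slightly higher level and had the smallest standard deviation of the 4 on the scale of the ratio to background. The gene (ENSMUSG00000032231) lies on chromosome 9 from 69453620 to 69491795 on the plus strand, with 3731 bases of exon. An antisense gene, Gm16144, and the microRNA gene Mir3109 lie within it, and without a stated strand setting their reads cannot be told apart from those of Anxa2. Naive libraries held 100, 41 and 139 counts of Anxa2, RES libraries 67, 43 and 121, and SUS libraries 149, 118 and 150. Relative to background, naive libraries had Anxa2 at 1.64, 1.81 and 1.76, RES libraries at 1.43, 1.44 and 1.84, and SUS libraries at 2.22, 1.76 and 2.15. Only SUS replicates 1 and 3 had a counting interval for Anxa2 above the median of the genes of other tissues. In 3 libraries, naive replicate 3 and RES replicates 2 and 3, it lay below. Averaged over libraries, 15 of the 39 other-tissue genes were below Anxa2.

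Ahnak received the most counts of the 4 and has the most exonic bases, 19938. It lies on chromosome 19 from 8989284 to 9076914 on the plus strand (ENSMUSG00000069833) and had 288 to 954 counts per library. Per length, naive libraries had Ahnak at 1.63, 2.38 and 2.26 times background, RES libraries at 1.7, 2.02 and 1.25, and SUS libraries at 2.65, 1.9 and 2.43. The counting interval lay above the median of the genes of other tissues in 3 libraries, naive replicate 2 and SUS replicates 1 and 3, and below in 4. Averaged over libraries, 19 of the 39 other-tissue genes were below Ahnak. Hltf, on chromosome 3 from 20057811 to 20118490 on the plus strand (ENSMUSG00000002428, 5931 exonic bases), stood highest per length. Naive libraries had it at 2.52, 3.86 and 2.17 times background, RES libraries at 2.24, 2.4 and 1.18, and SUS libraries at 4.84, 2.48 and 4.23. The counting interval of Hltf lay above the median of the genes of other tissues in 6 of 9 libraries and below in 1, RES replicate 3. Averaged over libraries, 34 of the 39 other-tissue genes were below Hltf.

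**Figure D1:**
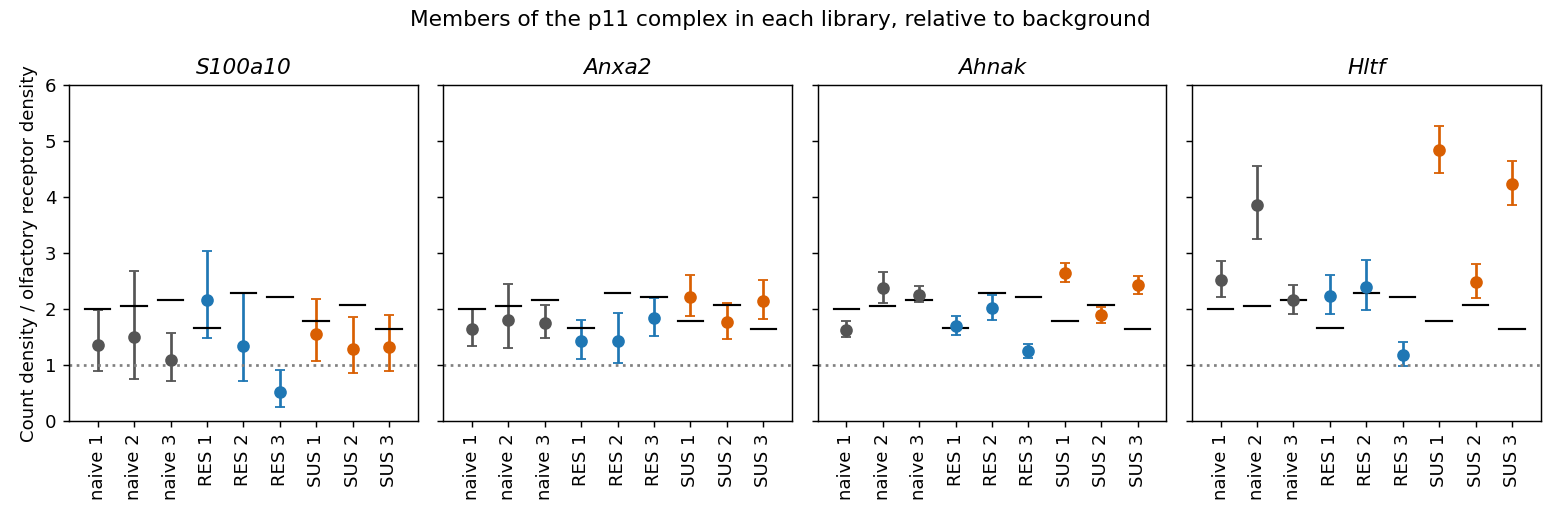
Count density of S100a10, Anxa2, Ahnak and Hltf in each library (points), divided by that of olfactory receptor genes, with exact 95% Poisson intervals (bars) and, as a short black line, the median of 39 autosomal genes of other tissues in the same library. S100a10 and Anxa2 mostly lie near or under the black lines. In SUS replicates 1 and 3 the whole bar of Anxa2 lies above the line, and Hltf lies farthest above it.

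By mean ratio to background, the order was S100a10 (1.35), Anxa2 (1.78), Ahnak (2.02) and Hltf (2.88), with standard deviations of 0.432, 0.274, 0.449 and 1.17 over the 9 libraries. Ahnak differed from both its neighbours in this order by less than the larger standard deviation, and the gap between S100a10 and Anxa2 was about as large as the standard deviation of S100a10. Among 21883 protein-coding nuclear genes, 26.3% averaged above 3 times background, and 0 of the 4 members did. Their percentiles were 28.9 for S100a10, 44.0 for Anxa2, 51.5 for Ahnak and 71.7 for Hltf. All 4 passed the filter on low counts, so every fold change below covers the whole complex.

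The sequence before the start of transcription is given for the 3 members with an entry in the RefSeq promoter table of GRCm38.p6, as the stretches from which these genes would be transcribed. Each run is on the plus strand, 5′ to 3′, and ends at the last base before the start of the gene in GENCODE. For Ahnak and Hltf this is also the RefSeq start of the entry, while for Anxa2 the RefSeq start lies farther downstream. Capitals mark matches on either strand to the AP-1 motif TGANTCA, the CCAAT box (CCAAT) or the GC box (GGGCGG), and a CRE (TGACGTCA) and a TATA box (TATAAA) were also searched. The runs cover chr9:69453433-69453619 for Anxa2, chr19:8989034-8989283 for Ahnak and chr3:20057561-20057810 for Hltf.
Anxa2: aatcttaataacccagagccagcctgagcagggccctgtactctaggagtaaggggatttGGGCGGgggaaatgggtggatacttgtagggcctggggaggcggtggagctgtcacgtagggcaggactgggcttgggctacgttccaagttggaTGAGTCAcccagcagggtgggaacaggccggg
Ahnak: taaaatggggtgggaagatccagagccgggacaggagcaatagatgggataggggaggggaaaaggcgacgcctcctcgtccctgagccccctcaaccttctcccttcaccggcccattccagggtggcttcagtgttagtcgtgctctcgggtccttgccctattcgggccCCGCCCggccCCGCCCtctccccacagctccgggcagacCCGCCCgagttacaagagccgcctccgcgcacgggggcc
Hltf: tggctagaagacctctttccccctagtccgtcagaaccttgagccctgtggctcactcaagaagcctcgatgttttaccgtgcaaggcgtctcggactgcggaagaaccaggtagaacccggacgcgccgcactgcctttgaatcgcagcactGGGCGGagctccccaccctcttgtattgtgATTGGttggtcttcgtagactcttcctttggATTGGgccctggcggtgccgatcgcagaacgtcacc
The Anxa2 run holds 1 AP-1 match, found in 5.13% of 32851 promoter entries over the same 187 bases, and 1 GC box, found in 22.2%. Ahnak has 3 GC boxes, a motif present in 32.7% of entries over the same 250 bases. Hltf has 2 CCAAT matches, a motif present in 33.9%, and 1 GC box. A match describes the letters only.

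The comparison of all cocaine libraries with naive libraries asked whether the complex differed in mice that had taken cocaine. No member was called, and the fold changes of all 4 lay within 0.13 of 0 on the log2 scale, with wide intervals. S100a10 averaged 3.17 ± 0.522 CPM in naive (SD, n = 3), with values from 2.59 to 3.6, and 3.4 ± 1.42 in the cocaine libraries (n = 6), with values from 1.43 to 5.78. Its log2 fold change was 0.11 (SE 0.371), on 215 counts in all 9 libraries. The 95% interval of the ratio ran from 0.624 to 1.87, so it takes in both a fall and a rise. Anxa2 averaged 12.9 ± 0.472 CPM in naive and 14.01 ± 3.27 with cocaine, a ratio of 1.09 with an interval of 0.797 to 1.5. The naive values of Anxa2, 12.4 to 13.3 CPM, lay inside the cocaine range of 9.24 to 18.1. Ahnak averaged 82.1 ± 9.67 and 81.4 ± 20.3 CPM (ratio 0.992, interval 0.667 to 1.48). Hltf averaged 33.2 ± 8.44 and 35.3 ± 17.0 CPM (ratio 1.07, interval 0.633 to 1.81). The naive and cocaine libraries overlapped for each member, while 0.617% of genes tested had all cocaine libraries above naive and 0.553% all below. By the edgeR quasi-likelihood test the adjusted p was 1 for each, and 0% of 39210 genes were called, with 0.9% higher and 0.479% lower at an unadjusted p under 0.05 (541 genes). DESeq2 and limma-voom also called 0, with 484 and 1697 such genes. The direction for S100a10 turned without naive replicate 3 or RES replicate 1, that for Hltf without naive replicate 3 or SUS replicate 1 or 3, and that for Ahnak without any of 6 libraries.

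RES and SUS were each compared with naive to ask whether either cocaine group differed alone. These comparisons share the naive libraries, so their values stand side by side and no likeness between them is read. In RES, Hltf averaged 23.3 ± 6.72 CPM (SD, n = 3) against 33.2 ± 8.44 in naive (n = 3), a log2 fold change of -0.51 (SE 0.326). This was -0.29 without RES replicate 3, -0.31 without naive replicate 2, -0.30 with limma-voom and -0.16 with a score of microglia markers as a covariate. In SUS it averaged 47.3 ± 15.6 CPM, a log2 fold change of 0.52 (SE 0.321) from naive. The 3 groups overlapped, with naive libraries at 32.5, 42.0 and 25.2 CPM of Hltf, RES libraries at 29.3, 24.5 and 15.997, and SUS libraries at 55.9, 29.3 and 56.7. Ahnak had log2 fold changes of -0.29 (SE 0.302) in RES and 0.22 (SE 0.301) in SUS. Anxa2 had -0.06 (SE 0.242) in RES and 0.29 (SE 0.236) in SUS, and S100a10 had 0.07 (SE 0.448) and 0.15 (SE 0.431). Each adjusted p was 1 in RES, and in SUS each rounded to 1. The test called 0% of genes in both comparisons, and DESeq2 and limma-voom also called 0. At an unadjusted p under 0.05, edgeR had 0.479% of genes higher and 0.441% lower in RES, and 1.71% higher and 1.42% lower in SUS. The corresponding counts were 361 and 1225 by edgeR, 264 and 931 by DESeq2, and 1671 and 3225 by limma-voom. For 0 of 4 members were RES or SUS libraries separated from naive, while 3.31% of genes were separated with RES higher, 2.82% with RES lower, 3.85% with SUS higher and 4.15% with SUS lower. Without RES replicate 1 the log2 fold change of S100a10 in RES was -0.60, and without RES replicate 3 it was 0.47.

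SUS was compared with RES to ask whether the cocaine groups, set apart by title and phenotype label, differed in the complex. Hltf was 2.04 times as high in SUS (95% interval 1.26 to 3.29), the widest difference of any member in any comparison, and it did not pass the test over all genes. Ahnak was 1.43 times as high (0.916 to 2.23), Anxa2 1.28 times (0.901 to 1.81) and S100a10 1.06 times (0.559 to 2.0). For Hltf the log2 fold change was 1.03 (SE 0.325), the unadjusted p by edgeR was 0.00641 and the adjusted p was 0.87. Of 39210 genes, 4.01% had an unadjusted p under 0.05 with a higher value in SUS, and 1.67% with a lower one. By p, Hltf ranked 152 over both directions. The test called 0% of genes, and DESeq2 and limma-voom also called 0, with 2227, 1885 and 3367 genes at an unadjusted p under 0.05. SUS replicates 1 and 3 were above every other library for Hltf, while SUS replicate 2 (29.3 CPM) was level with RES replicate 1 (29.3 CPM).

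Ahnak was at 74.8, 69.2 and 57.0 CPM in RES and 103, 75.3 and 109 in SUS. These libraries did not overlap, by a margin of less than 1 CPM between RES replicate 1 and SUS replicate 2. Such a separation was found for 3.41% of genes with SUS higher and for 4.22% with SUS lower. The log2 fold change of Ahnak was 0.52 (SE 0.302, adjusted p = 0.887). Anxa2 was at 11.7, 9.24 and 15.7 CPM in RES and 16.1, 13.1 and 18.1 in SUS, overlapping through RES replicate 3. Its log2 fold change was 0.35 (SE 0.237, adjusted p = 0.909). S100a10 was at 5.78, 2.79 and 1.43 CPM in RES and 3.68, 3.1 and 3.63 in SUS, so the SUS values lay inside the RES range. Its adjusted p was 0.994, and its direction turned without RES replicate 2 or 3. Between libraries of the same number, SUS was higher than RES in 3 of 3 for Hltf, Ahnak and Anxa2 and in 2 of 3 for S100a10. The labels do not state that the numbers pair libraries, and for Ahnak any numbering gives 3 of 3. No share over all genes stands beside these counts, so they are no test of a difference.

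**Figure D2:**
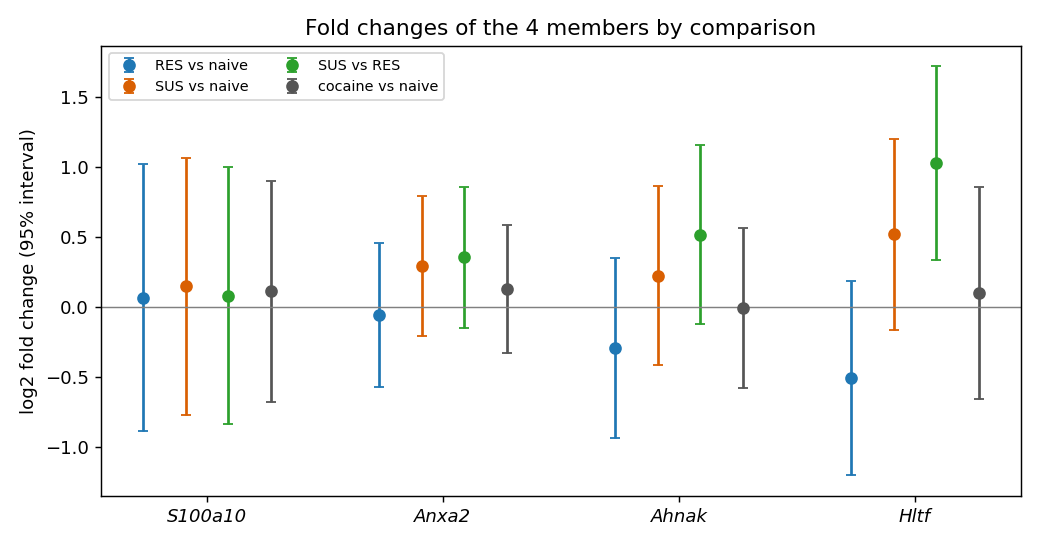
Log2 fold change (points) of S100a10, Anxa2, Ahnak and Hltf with 95% intervals (bars) in the 4 comparisons by edgeR. Of 16 intervals, that of Hltf for SUS against RES (0.34 to 1.72) lies clear of 0.

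The level of microglia markers moved with Hltf across libraries, and so did that of other marker lists. Pearson's correlation of Hltf with the list mean of log2 CPM was 0.87 for microglia and 0.84 for border and blood macrophage markers. For oligodendrocyte markers it was 0.84 and for vascular leptomeningeal and fibroblast markers 0.78. The other marker lists ran from -0.62 (ependymal and choroid plexus) to 0.68 (endothelial). In the 4 libraries with microglia markers at 1.98 to 4.17 times background, Hltf was at 15.997 to 29.3 CPM. It was at 29.3 to 56.7 CPM in the 5 with markers at 22.4 to 68.4, and the 3 libraries highest in microglia markers, naive replicate 2 and SUS replicates 1 and 3, were the 3 highest in Hltf. Ahnak was at 57.0 to 88.3 CPM in the first 4 libraries and 71.0 to 109 in the other 5. All 12 microglia markers were above 0 in every library, and their median log2 fold change for SUS against RES was 2.37, with 0 of 12 called. In a fit chosen after seeing the data, with a score of microglia markers as a covariate, the log2 fold change of Hltf for SUS against RES was 0.52 (SE 0.292, adjusted p = 1), that of Ahnak 0.35 and that of S100a10 -0.26. Oligodendrocyte markers also had a higher point estimate in SUS for 10 of 10 genes (median 1.13, 0 called), border and blood macrophage markers for 9 of 10 (median 0.51, 0 called) and vascular leptomeningeal and fibroblast markers for 8 of 10 (median 0.26, 0 called). Endothelial markers were higher for 9 of 10 (median 0.46, 0 called) and oligodendrocyte precursor markers for 7 of 8 (median 0.33, 0 called). Point estimates were lower in SUS for 8 of 10 astrocyte markers (median -0.31, 0 called) and 8 of 10 pan-neuronal markers (median -0.17, 0 called). Medium spiny neuron markers were lower for 9 of 12 (median -0.10, 0 called). Over all genes tested, 51.2% had a higher point estimate in SUS. The macrophage markers summed to 245 to 335 CPM in naive, 141 to 252 in RES and 182 to 522 in SUS, and the leptomeningeal markers to 218 to 237, 187 to 243 and 183 to 301, with none at 0. In bulk libraries fewer cells of a type and less RNA per cell cannot be told apart, and the part of other cells in the Hltf values was otherwise not tested.

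**Figure D3:**
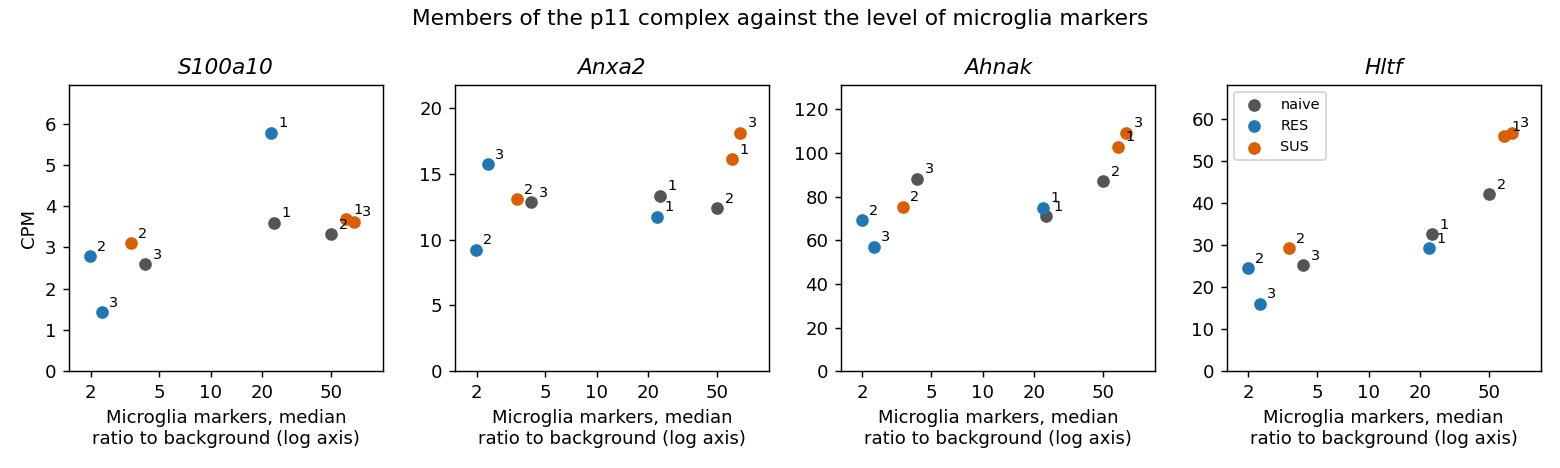
CPM of S100a10, Anxa2, Ahnak and Hltf in each library against the median ratio to background of 12 microglia markers (log axis), with points coloured by group and numbered by replicate. Hltf is highest in SUS replicates 1 and 3 and naive replicate 2, the libraries farthest to the right.

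Among themselves the members varied alike only in part. Over the 9 libraries, Pearson's correlation of log2 CPM was 0.90 for Ahnak with Hltf (Spearman 0.77) and 0.61 for S100a10 with Hltf (Spearman 0.78). It was -0.14 for S100a10 with Anxa2, the pair whose proteins form the complex, where Spearman's was 0.15. Pearson's correlation was 0.48 for S100a10 with Ahnak, 0.43 for Anxa2 with Ahnak and 0.41 for Anxa2 with Hltf. These values describe 9 points that share scaling, depth and cell makeup. With the log2 scaling factor of the library, log2 CPM correlated at -0.78 for S100a10, -0.68 for Hltf, -0.62 for Ahnak and 0.25 for Anxa2, and the part of the scaling in these values was not tested. Of 5281 genes of at least 10 CPM and 3 times background, the 5 most like Hltf were Sh2b3 (0.99), Itch, Tab2, Fam102b and Cnot2 (each 0.98). For Ahnak they were Jup, Ctnnb1, Gnai3, Anxa5 and Pfkfb3 (0.95 to 0.96). For Anxa2 they were Wdr93, Tek, Cryzl2, Slc7a7 and Epsti1 (0.87 to 0.89), and for S100a10 they were Otud6b, Hdac2, Smarce1, Sncaip and Brd7 (0.88 to 0.94). With 1 library left out, the lowest correlation among these was 0.92 for Ahnak, 0.97 for Hltf, 0.73 for Anxa2 and 0.66 for S100a10. The 95th percentile over the 5281 genes was 0.94 for Hltf, 0.87 for Ahnak, 0.55 for Anxa2 and 0.74 for S100a10, so many genes followed Hltf and Ahnak nearly as closely.

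Within its family, S100a10 was among the lowest per length. Of 15 other S100 genes, which encode small calcium-binding proteins, 13 had a higher mean ratio to background and 6 averaged above 3. The highest were S100a13 (8.76 times background, 4.42 to 13.8 over libraries) and S100a1 (8.34, 3.84 to 15.3), and only S100a3 (1.17) and S100a14 (1.22) averaged less than S100a10. The astrocyte gene S100b was at 4.23. In no comparison was an S100 gene called, and the median log2 fold change of the 15 was -0.12 for SUS against RES beside 0.01 over all genes. S100a16 averaged 15.2 ± 2.48 CPM in naive and 13.98 ± 5.07 and 13.4 ± 3.14 in RES and SUS, and S100a11 4.59 ± 1.02, 3.87 ± 1.65 and 4.38 ± 0.826 CPM. S100a5 had a log2 fold change of -0.41 (SE 0.337) for SUS against RES and S100a13 -0.33 (SE 0.297).

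Anxa2 was likewise low among annexins, the calcium-dependent membrane-binding proteins, with 9 of 11 others above it per length. Anxa6 was highest at 8.31 times background (4.7 to 12.8), followed by Anxa3 (4.82) and Anxa5 (4.25). None of the 11 was called. For SUS against RES, Anxa3 had a log2 fold change of 1.38 (SE 0.624) and Anxa5 of 0.56 (SE 0.255), each with an adjusted p of 0.87 by edgeR. Anxa3 was at 36.5, 12.2 and 12.6 CPM in RES and 64.7, 11.1 and 84.3 in SUS, low in SUS replicate 2 as Hltf was. The naive values of Anxa3 were 36.3, 53.2 and 13.7 CPM. For all cocaine libraries against naive, Anxa9 and Anxa6 had log2 fold changes of -0.10 (SE 0.205) and -0.09 (SE 0.255).

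**Figure D4:**
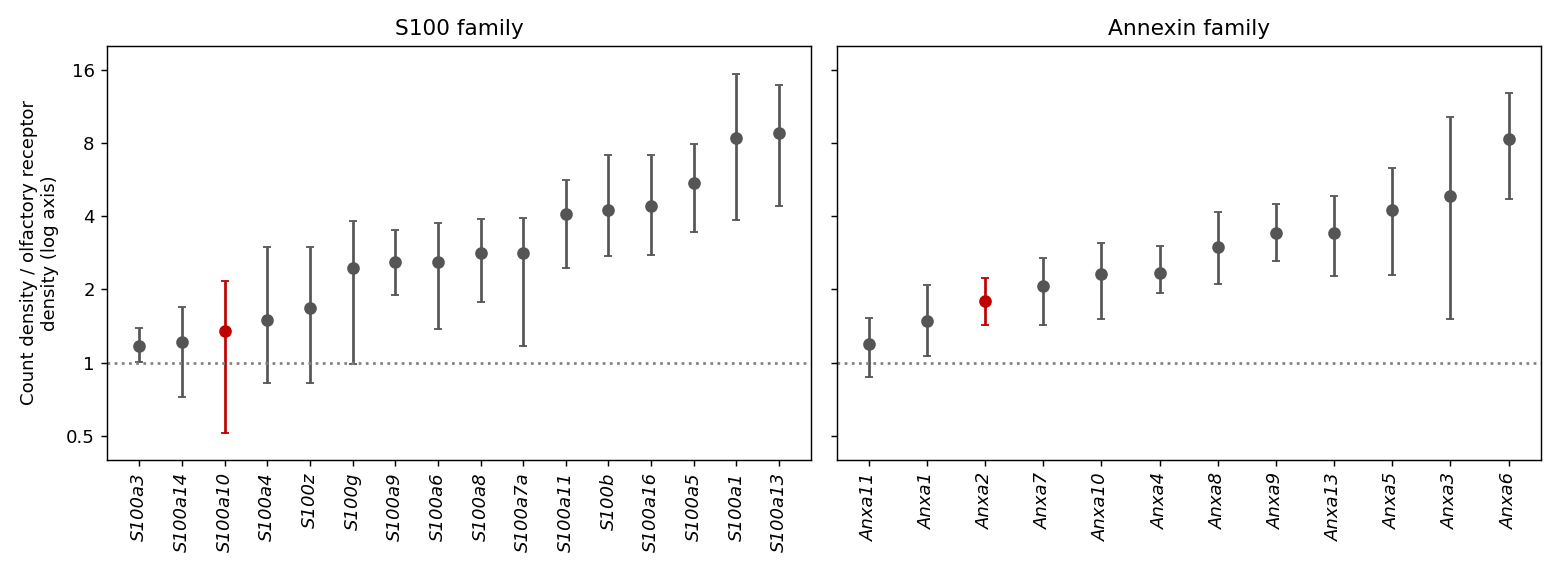
Mean count density relative to olfactory receptor genes (points, log axis) with the lowest and highest of 9 libraries (bars) for S100 genes and annexins, S100a10 and Anxa2 in red. S100a10 (1.35) and Anxa2 (1.78) each have only 2 family members below them.

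The surface proteins that p11 is known to carry were mostly low. Of 9 receptors and channels bound by p11, 2 averaged above 3 times background, the glutamate receptor Grm5 (5.84) and the acid-sensing channel Asic1 (3.02). The serotonin receptors Htr1b, Htr1d and Htr4, whose surface level depends on p11 in other settings, were at 1.47, 1.42 and 1.7 times background, and the potassium channel Kcnk3 at 0.689. None of the 9 was called in any comparison. Grm5 averaged 105 ± 36.8 CPM in naive, 133 ± 70.5 in RES and 116 ± 82.1 in SUS, and Asic1 40.2 ± 12.2, 30.7 ± 13.7 and 31.9 ± 17.7. The spread within groups exceeded the differences between them for both genes. Of 9 further serotonin receptors, Htr6 alone averaged above 3 times background (3.48), at 17.8 ± 1.97 CPM in naive, 17.0 ± 9.5 in RES and 13.3 ± 4.46 in SUS.

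Other partners of the complex were taken from a list of 8 genes. The plasminogen system, which the p11 and annexin A2 pair activates at the cell surface, was also a list of 8. A further list of 11 held genes of factors known to induce p11 and of receptors. None was called in any comparison. Among the partners, the protease cathepsin B (Ctsb, 12.6 times background) had a log2 fold change of 1.56 (SE 0.671) for SUS against RES. In that comparison the calcium channel Cacna1c had -0.14 (SE 0.425). Ctsb ran from 30.8 to 373 CPM over the libraries, and the part of microglia in its values was not tested. Ahnak2, the relative of Ahnak, was at 0.622 times background. In the plasminogen system, the activator Plau averaged 24.8 ± 9.63 CPM in naive, 18.3 ± 10.4 in RES and 24.9 ± 14.02 in SUS, and the inhibitor Serpine2 78.0 ± 22.0, 61.6 ± 24.3 and 85.6 ± 28.3. Tissue plasminogen activator, Plat, was at 2.09 times background and plasminogen, Plg, at 1.56.

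Over all genes tested, 51.2% had a higher point estimate in SUS than in RES, with a median log2 fold change of 0.01. Of the 11 genes of inducers and receptors, 7 had a higher one, with a median of 0.73. Their largest difference was in Tgfb1, a growth factor, at 2.05 (SE 0.66, adjusted p = 0.87 by edgeR), followed by its receptor Tgfbr1 at 1.96 (SE 0.895) and Tgfbr2 at 1.57 (SE 0.604). Naive libraries had Tgfb1 at 62.4, 85.2 and 21.5 CPM, RES libraries at 43.3, 12.0 and 17.4, and SUS libraries at 111, 21.3 and 169. Its 4 lowest libraries were the 4 lowest in microglia markers, and the part of microglia in these values was not tested. The BDNF receptor Ntrk2 averaged 241 ± 71.7 CPM in naive, 233 ± 114 in RES and 210 ± 38.9 in SUS, while Bdnf was at 0.726 times background.

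Around Hltf, 2 groups were measured. In DNA damage tolerance, the pathway in which Hltf helps to ubiquitinate PCNA at stalled replication forks, 3 of 12 other genes averaged above 3 times background and 0 were called. Pcna itself averaged 21.2 ± 12.0 CPM in naive, 11.7 ± 5.89 in RES and 25.9 ± 18.1 in SUS, a log2 fold change of 1.15 (SE 0.547) for SUS against RES. The ubiquitin-conjugating enzyme Ube2b averaged 25.6 ± 6.87, 26.0 ± 12.5 and 28.5 ± 1.27 CPM. Of 12 other ATPases of the SNF2 family, to which Hltf belongs, 8 averaged above 3 times background, led by Smarca4 (19.9) and Chd4 (19.0), and 8 were above Hltf per length. None was called, and their median log2 fold change for SUS against RES was 0.06. Smarca5 had 0.47 (SE 0.36) and Chd4 0.54 (SE 0.473) in that comparison. For all cocaine libraries against naive, Chd5 had -0.48 (SE 0.401) and Smarca4 -0.42 (SE 0.371).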

How the data were processed

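The deposited table holds raw counts per Ensembl gene in 9 columns, whole numbers with no scaling by the authors, and 0 columns were left unused. The submitters' processing notes list the build GRCm38 and, without order or settings, the tools HTSeq, STAR 2.5.2b, DESeq2, DESeq and FastQC. Which strand setting and which annotation release were used is not given in the sources used here. Positions, exonic lengths and biotypes came from GENCODE mouse release M21 on GRCm38 (52489 of 52636 IDs) and symbols from a table of gene names (52403), and 147 IDs matched neither. The members and gene lists were chosen with earlier results of these data known.

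After the filterByExpr filter and TMM scaling (trimmed mean of M values), edgeR 4.0.16 in R 4.3.3 gave quasi-likelihood tests, adjusted by Benjamini-Hochberg over all 39210 genes at 0.05. A 3-group model gave the pairwise comparisons, and a separate fit of naive and pooled cocaine libraries gave the other one. The F statistic gave each standard error and 95% interval. CPM are TMM-scaled, and log2 CPM used a prior count of 2. The fit was run on simulated counts with larger fold changes than those of the members, so that run does not cover differences of their size. Genes named besides the members were, per list and for cocaine against naive and SUS against RES, the 2 with the smallest p among those at 3 times background or more, and the 5 most correlated genes per member. For marker lists this naming was narrowed after the values were seen, and some low genes are named for their level only. Alternatives were DESeq2 1.42.0, limma-voom (limma 3.58.1), other scalings and filters, a replicate block and each library left out. Deviations of same-numbered RES and SUS libraries from their group means correlated at 0.44, 0.41 and 0.12. Differently numbered libraries reached 0.34 (RES replicate 1 with SUS replicate 3) and 0.66 (naive replicate 3 with SUS replicate 2). The labels do not state a pairing, and these correlations cannot decide whether the numbers pair libraries. The values given come from the fit without a block, and the fit with the replicate number as a block was an alternative. The depth per library was 4471675 to 11155730 counts.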

Additional observations from a re-analysis of the deposited data

How the results depend on the processing

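No alternative called a member, and 0 genes were called in each of the 4 comparisons under every alternative run. Hltf for SUS against RES kept its direction in all 18 alternatives, with log2 fold changes of 0.52 to 1.28 and adjusted p of 0.0836 to 1, and so did Ahnak (0.35 to 0.66) and Anxa2 (0.17 to 0.58). With 1 library left out, Hltf ran from 0.81 without RES replicate 3 to 1.28 without SUS replicate 2. Against naive, over all alternatives, Hltf ran from -0.70 to -0.16 in RES and 0.35 to 0.77 in SUS, Ahnak from -0.39 to -0.19 and 0.12 to 0.37, and Anxa2 in SUS from 0.18 to 0.41. Values near 0 changed sign with single libraries, where the cause was not tested. For S100a10 they ran from -0.60 to 0.47 in RES against naive, -0.0061 to 0.27 in SUS against naive, -0.32 to 0.74 in SUS against RES and -0.091 to 0.27 in cocaine against naive. For Anxa2 in RES against naive they ran from -0.29 to 0.11, and in cocaine against naive from -0.11 to 0.073 for Ahnak and -0.087 to 0.29 for Hltf. With limma-voom S100a10 was at -0.20 for SUS against RES and Hltf at -0.046 for cocaine against naive. With the microglial score as a covariate, chosen after seeing the data, S100a10 was at -0.26 for SUS against RES, Anxa2 at 0.018 for RES against naive and Ahnak at 0.0074 for cocaine against naive. With genes of other tissues as background, the mean ratios were 0.704 for S100a10, 0.915 for Anxa2, 1.04 for Ahnak and 1.51 for Hltf.

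With the replicate number as a block, S100a10 was at -0.021 for RES against naive, Hltf at 1.06 for SUS against RES, and no call changed. Same-numbered libraries correlated at 0.00 to 0.07 between naive and RES and at -0.49 to 0.03 between naive and SUS. Whether the numbers pair any libraries is not known. By Spearman's correlation, 3 of the 5 genes most like Anxa2, 2 for Ahnak, 1 for S100a10 and 0 for Hltf stayed among the 5. Relative to its level, counting error is largest for S100a10, at 11 to 34 counts per library.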

Other observations

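In a list of 6 red blood cell genes, 5 were tested, and 2 had all cocaine libraries above naive, with 0 called. The lists held 225 entries in all, with the complex and the red blood cell genes included. Outside the complex and that list, 2 genes of the lists had no overlap between the cocaine and naive libraries. These 2 genes were chosen here after their values were seen. S100a9, an S100 gene of neutrophils, was at 2.4, 1.81 and 1.94 CPM in naive and at 2.66 to 3.66 in the 6 cocaine libraries, on 6 to 33 counts per library over all 9. It had a log2 fold change of 0.57 (SE 0.304, adjusted p = 1 by edgeR). The serotonin receptor Htr2b was at 8.94, 9.97 and 10.4 CPM in naive and at 3.75 to 8.2 in the cocaine libraries, a log2 fold change of -0.61 (SE 0.232, adjusted p = 1). Of all genes tested, 0.617% were separated in this way with cocaine higher and 0.553% with cocaine lower. S100a9 averaged 2.58 times background and Htr2b 1.77, beside a median of 2.07 for genes of other tissues.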
